A study of Mus musculus with 8 samples.

Results

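The 10 genes described here are the Notch receptors Notch1, Notch2, Notch3 and Notch4, the ligands Jag1, Jag2 and Dll1, and the target genes Hes1, Hey1 and Heyl. They were taken by name from the arrays' non-control spots, with differences between GFP-positive and GFP-negative cells in the same data in view, and are 10 of 34821 gene names on the array. Each had at least 1 probe, and together they had 13 probes. Of these, 10 probes, covering 9 of the genes, had a signal well over background on 4 or more of the 8 arrays, and these are called measured below. The exceptions were the single Heyl probe, 1 of 2 Notch1 probes and 1 of 2 Dll1 probes.

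The cells were MAM326, a mammary cancer line of the mouse grown in serum-containing DMEM and separated by fluorescence-activated sorting for array measurement of messenger RNA. The groups were GFP-positive cells (4 arrays) and GFP-negative cells (4 arrays), both of the same line, plated 2 days before the sort, from 4 experiments done at 4 passages. The sources used here give neither what drives GFP nor whether the line is 1 clone, and they label neither group with any further allele or agent. Each 1-colour Agilent array was hybridised with Cy3-labelled cRNA made from 20 ng of total RNA.

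All 8 arrays lay on 1 slide, in 2 rows. Row 1 held GFP-positive replicates 1 and 3 and GFP-negative replicates 2 and 4, and row 2 held GFP-positive replicates 2 and 4 and GFP-negative replicates 1 and 3. Between 25105 and 31965 of 55681 probes per array were well above background, and no member probe was saturated. Of the markers of mammary epithelium, 8 of 8 were measured, with a mean log2 level of 3.74 to 4.45 on GFP-positive arrays and of 3.24 to 4.06 on GFP-negative arrays, and 6 of 7 fibroblast, 4 of 8 leukocyte and 2 of 8 endothelial markers were measured too. Col1a1 and Col1a2, collagen genes of fibroblasts, averaged 2.27 ± 1.98 and 3.54 ± 1.77 on GFP-positive arrays (SD, n = 4). On GFP-negative arrays they averaged 4.39 ± 1.89 and 5.49 ± 1.59, with overlap between the groups. GFP-positive minus GFP-negative, they differed by -4.65 and -4.21 in row 1 but by 0.40 and 0.31 in row 2. Of the other fibroblast markers measured, Pdgfra, Pdgfrb and Dcn were lower on average in GFP-positive cells and Thy1 was higher, all with overlap. The endothelial markers Cdh5, Tie1, Tek, Emcn and Cldn5 and the leukocyte marker Lyz2 were not well above background on any array. The endothelial marker Kdr averaged 2.82 on GFP-positive arrays and 2.83 on GFP-negative arrays, and the leukocyte markers Csf1r and Itgam averaged 3.32 and 2.57 on GFP-positive arrays and 3.03 and 2.55 on GFP-negative arrays. Since no label ties an array to its experiment, errors and p-values describe the spread among the 8 arrays.

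Notch receptors are transmembrane proteins that are activated by ligands on a neighbouring cell. Ligand binding exposes the receptor to cleavage by an ADAM protease and then by gamma-secretase, and the released intracellular domain enters the nucleus, where it joins the DNA-binding protein Rbpj and a Mastermind coactivator at target genes such as those of the Hes and Hey families. In the mammary gland the pathway is known for its part in the choice between luminal and basal fates, and Notch3 for its expression in luminal progenitors.

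The stretches upstream of 4 of these genes are shown because Notch3 had, of the measured members, the largest difference between the sorted fractions and because the 3 ligands moved together from array to array. They are the 250 bases before the annotated RefSeq start on GRCm38.p6, written 5′ to 3′ on the gene's strand, and capitals mark the N box.
Notch3, chr17:32166891-32167140, minus strand: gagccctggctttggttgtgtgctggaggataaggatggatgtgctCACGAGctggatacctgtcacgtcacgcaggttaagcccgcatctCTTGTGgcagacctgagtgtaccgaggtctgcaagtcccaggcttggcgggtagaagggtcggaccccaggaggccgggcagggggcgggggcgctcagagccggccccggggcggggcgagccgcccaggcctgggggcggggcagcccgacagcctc
Jag1, chr2:137116521-137116770, minus strand: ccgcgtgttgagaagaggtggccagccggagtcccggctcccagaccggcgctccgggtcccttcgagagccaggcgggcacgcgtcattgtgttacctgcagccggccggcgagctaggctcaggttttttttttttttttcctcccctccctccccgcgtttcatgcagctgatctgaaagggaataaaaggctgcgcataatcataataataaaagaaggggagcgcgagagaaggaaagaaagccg
Jag2, chr12:112929496-112929745, minus strand: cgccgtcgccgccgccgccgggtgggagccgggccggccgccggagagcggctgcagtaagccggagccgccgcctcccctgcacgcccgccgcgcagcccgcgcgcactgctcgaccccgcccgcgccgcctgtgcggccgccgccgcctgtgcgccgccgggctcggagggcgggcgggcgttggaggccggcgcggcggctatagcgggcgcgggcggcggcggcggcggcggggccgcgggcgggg
Dll1, chr17:15375824-15376073, minus strand: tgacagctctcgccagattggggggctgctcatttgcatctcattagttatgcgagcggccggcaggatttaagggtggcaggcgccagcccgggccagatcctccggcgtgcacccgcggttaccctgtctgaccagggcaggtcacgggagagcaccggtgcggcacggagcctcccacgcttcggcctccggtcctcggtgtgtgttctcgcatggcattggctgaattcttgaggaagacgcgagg

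The N box (CACNAG, or CTNGTG on the other strand) is the site that Hes proteins are known to bind. It occurred 2 times in the Notch3 window, beginning 204 and 159 bases before the start, and was not found in the windows shown for Jag1, Jag2 and Dll1. Of the 8 windows available for 7 of the genes, 3 held an N box, against 36.7% of all 32851 windows of that length. The core letters of the Rbpj site (TGGGAA, or TTCCCA on the other strand) were in 0 of the 8 windows, against 21.6% of all windows. A match of one motif cannot be a match of the other, and the absence of these letters concerns these windows alone. No window was printed for Hes1, Hey1 or Heyl.

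The arrays read each gene through 60-base probes, and 2 of them are shown because both bear on how firmly a receptor can be described. The Notch1 probe was the 1 of 2 that gave a usable signal, and this Notch2 probe gave a difference of the opposite sign to the other Notch2 probe. They begin at base 5898 of the Notch1 transcript and at base 7448 of the Notch2 transcript.
Notch1 probe A_55_P2171897, chr2:26319440-26319499 (mm9), minus strand: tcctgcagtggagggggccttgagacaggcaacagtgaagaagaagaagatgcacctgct
Notch2 probe A_55_P1982793, chr3:97951233-97951292 (mm9), plus strand: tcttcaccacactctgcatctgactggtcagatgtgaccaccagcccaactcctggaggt

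The genes were chosen by their log2 differences between GFP-positive and GFP-negative cells, in that those values were known when the list was drawn up. Their differences are therefore given as a description, and counts from the limma fit only as background. Levels are log2 processed signals relative to the array's 75th percentile, so that a level of 0 is the 75th percentile, and they cannot be set against those of another probe. Errors of means are SDs over 4 arrays, and errors of differences are standard errors from limma. Of the 10 measured probes, 7 were on average higher and 3 lower in GFP-positive cells. Their median difference was 0.17, against -0.06 over all 27574 measured probes. Notch3 was the 1 of 10 probes past an adjusted p of 0.05 in limma, as a higher one, and 0 were past it as lower ones. Of all measured probes 2.00% passed, 1.52% as higher (420) and 0.479% as lower (132), and the split over all probes was 510 higher and 386 lower with normexp background correction and 971 higher and 1143 lower with array weights. At an unadjusted p of 0.05 there were 1 higher and 2 lower of the 10 (21.7% of all probes, both directions). Notch3 was also the 1 probe of 10 whose groups did not overlap, where 15.8% of all did not, 4.90% as higher and 10.9% as lower. These shares are given as background and nothing is read from them, since the choice of genes used the same comparison.

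**Figure D1:**
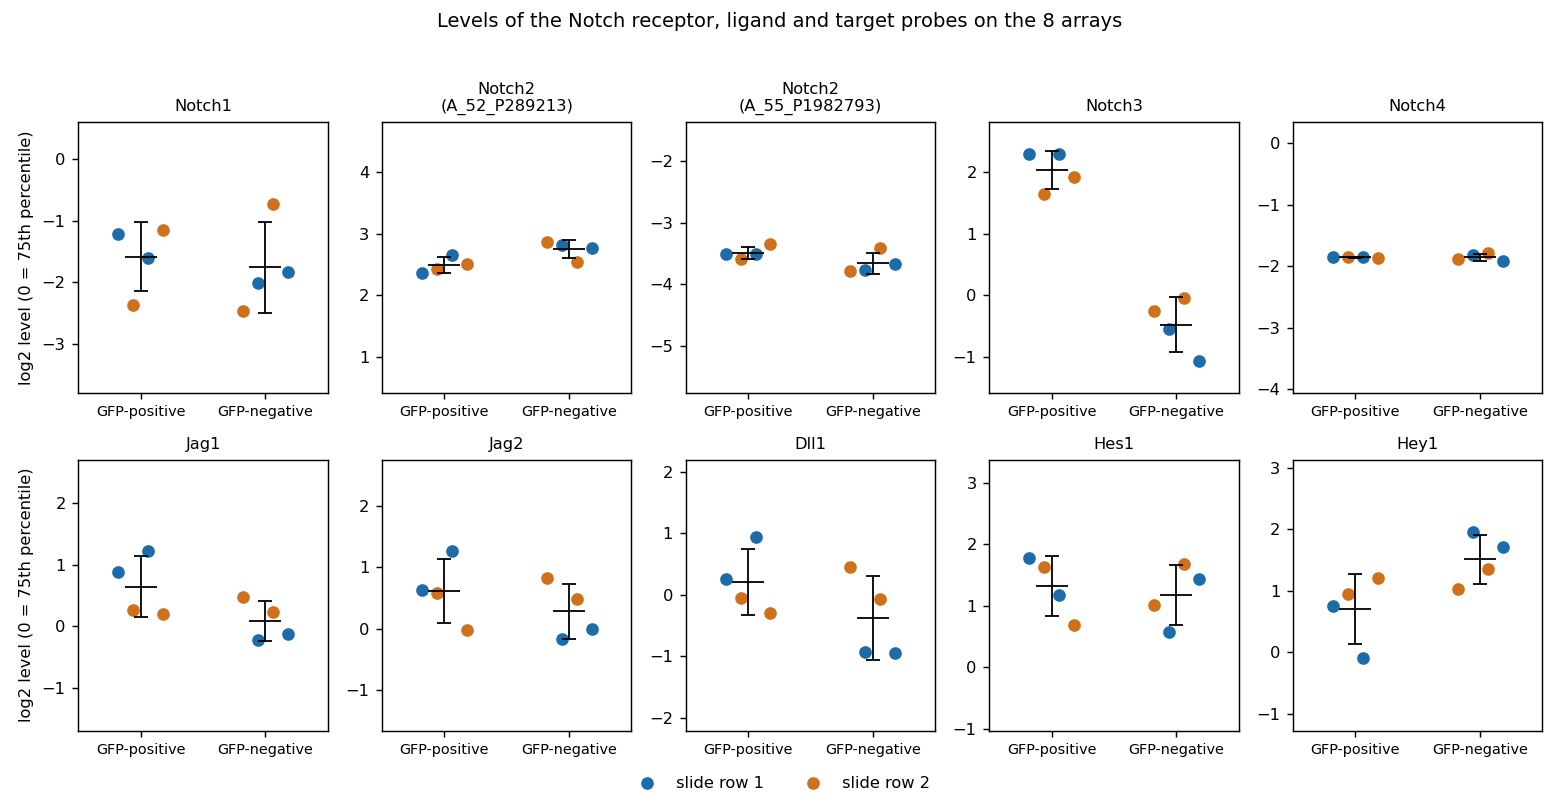
Log2 level (0 is the array's 75th percentile) of each measured probe on the 8 arrays, GFP-positive at left and GFP-negative at right in each panel, coloured by slide row, with the mean and SD of 4 arrays in black. Every panel spans the same number of log2 units; Notch3 is the one panel in which the groups do not overlap, with means of 2.04 and -0.48.

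Among the receptors, Notch3 stood higher in GFP-positive cells. Its probe (A_51_P220162, chr17:32257848-32257907 on mm9, minus strand) read 2.30, 1.64, 2.29 and 1.92 in GFP-positive replicates 1 to 4, against -0.25, -0.54, -0.05 and -1.06 in GFP-negative replicates 1 to 4. The lowest GFP-positive array thus lay above the highest GFP-negative array. The means were 2.04 ± 0.32 and -0.48 ± 0.44 (SD, n = 4 each), a difference of 2.51 ± 0.24 on the log2 scale, or 5.71-fold. Ranked from the highest, this difference was number 40 of 27574 probes. It lay between 2.32 and 2.66 when any one array was left out. It was 3.10 in slide row 1 and 1.93 in row 2, with the GFP-positive arrays higher, and the GFP-negative arrays lower, in row 1 than in row 2. In such sorted bulk RNA, fewer cells that make a transcript and less of it per cell cannot be told apart.

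Notch1, a receptor used widely in epithelial and blood development, varied between arrays more than between groups. The usable probe (A_55_P2171897) read -1.22, -2.37, -1.61 and -1.15 in GFP-positive replicates 1 to 4, against -2.46, -2.00, -0.73 and -1.84 in GFP-negative replicates 1 to 4. Both groups spread over more than 1 log2 unit and overlapped, and the difference was 0.17 ± 0.40. Leaving out one array moved it between -0.06 and 0.52, so its sign depended on single arrays. The other Notch1 probe (A_55_P2047168, chr2:26314630-26314689 on mm9) was well above background on 1 array, a GFP-positive one.

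Notch2 gave opposite signs in its 2 probes, which both lay on the same transcript. The probe nearer the transcript's end (A_52_P289213, chr3:97953914-97953973 on mm9, beginning at base 10129) read 2.37, 2.43, 2.66 and 2.51 in GFP-positive replicates 1 to 4, against 2.86, 2.82, 2.54 and 2.77 in GFP-negative replicates 1 to 4, a difference of -0.26 ± 0.10. The probe at base 7448 (A_55_P1982793), shown above, read -3.51, -3.59, -3.50 and -3.35 in GFP-positive replicates 1 to 4, against -3.78, -3.77, -3.42 and -3.67 in GFP-negative replicates 1 to 4, a difference of 0.17 ± 0.10. On both probes GFP-negative replicate 3 lay apart from the other 3 GFP-negative arrays and inside the GFP-positive range. The fold was 0.837 on the first probe and 1.13 on the second, so no single direction can be given for Notch2. The second probe had low levels, averaging -3.49 on GFP-positive and -3.66 on GFP-negative arrays, and depended more on background correction. Its difference was 0.04 ± 0.10 with normexp, while that of the first probe lay between -0.30 and -0.19 over 11 other settings.

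Notch4, known chiefly as an endothelial receptor and, in mice, as a site of mammary tumour virus insertion, was the steadiest of the measured probes. Its probe (A_51_P195875, chr17:34725120-34725179 on mm9) read -1.85, -1.85, -1.84 and -1.86 in GFP-positive replicates 1 to 4, against -1.88, -1.82, -1.79 and -1.92 in GFP-negative replicates 1 to 4. The SD over all 8 arrays was 0.039, and the difference was -0.0004 ± 0.065. Of 8 endothelial markers, 5 were not well above background on any array, while Kdr and Pecam1 were measured. Kdr averaged 2.82 on GFP-positive and 2.83 on GFP-negative arrays, and the part of endothelial transcripts in the level of Notch4 was not tested.

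The ligands Jag1, Jag2 and Dll1 were higher on average in GFP-positive cells, with wide spreads and overlapping groups, and the same arrays were high or low for all 3. Jag1, a Jagged-family ligand (A_52_P634090, chr2:136907433-136907492 on mm9), read 0.88, 0.27, 1.22 and 0.19 in GFP-positive replicates 1 to 4, against 0.47, -0.22, 0.22 and -0.13 in GFP-negative replicates 1 to 4, a difference of 0.55 ± 0.26. Its relative Jag2 (A_51_P451338, chr12:114146887-114146946 on mm9) read 0.63, 0.58, 1.26 and -0.02 in GFP-positive replicates 1 to 4, against 0.81, -0.18, 0.47 and 0.00 in GFP-negative replicates 1 to 4, a difference of 0.33 ± 0.30. GFP-positive replicate 3 was the highest array for both, and GFP-negative replicate 2 the lowest, while the groups overlapped. Without any one array the difference lay between 0.36 and 0.71 for Jag1 and between 0.12 and 0.54 for Jag2. Within slide row 1 it was 1.23 for Jag1 and 1.03 for Jag2, and within row 2 it was -0.12 and -0.36.

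Dll1, a Delta-like ligand (A_51_P306017, chr17:15504623-15504682 on mm9), read 0.26, -0.06, 0.93 and -0.29 in GFP-positive replicates 1 to 4, against 0.45, -0.93, -0.07 and -0.95 in GFP-negative replicates 1 to 4. GFP-positive replicate 3 was again the highest array, and GFP-negative replicates 2 and 4 were the lowest. The difference was 0.59 ± 0.38, with overlap between the groups, and lay between 0.34 and 0.86 without any one array. It was 1.54 in slide row 1 and -0.37 in row 2. This probe was spotted 10 times per array, and the SD over those spots was 0.035 to 0.096, smaller than the SD over arrays of 0.53 on GFP-positive arrays and 0.69 on GFP-negative arrays. The second Dll1 probe (A_55_P1986900, chr17:15513726-15513785 on mm9) was not well above background on any array.

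Of the targets, Hes1 had nearly the same range in both groups and Hey1 was lower on average in GFP-positive cells. Hes1, a transcriptional repressor (A_55_P2046245, chr16:30067820-30067879 on mm9), read 1.77, 1.63, 1.17 and 0.69 in GFP-positive replicates 1 to 4, against 1.01, 0.57, 1.68 and 1.44 in GFP-negative replicates 1 to 4. The highest array was GFP-positive and the lowest GFP-negative, and the difference was 0.14 ± 0.30. Without any one array it lay between -0.06 and 0.35.

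Hey1, a repressor related to the Hes proteins (A_51_P258409, chr3:8663432-8663491 on mm9), read 0.76, 0.95, -0.09 and 1.22 in GFP-positive replicates 1 to 4, against 1.03, 1.95, 1.36 and 1.71 in GFP-negative replicates 1 to 4. The groups overlapped through GFP-positive replicate 4 and GFP-negative replicate 1. The difference was -0.80 ± 0.31, a fold of 0.573, and lay between -0.97 and -0.54 without any one array. Within slide rows the difference was -1.50 in row 1 and -0.11 in row 2. On average over the 8 arrays, Hey1 was therefore lower in the fraction in which Notch3 was higher. Heyl, the third Hey-family repressor (A_52_P337259, chr4:122926975-122927034 on mm9), was not well above background on any array, so no direction is given for it.

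**Figure D2:**
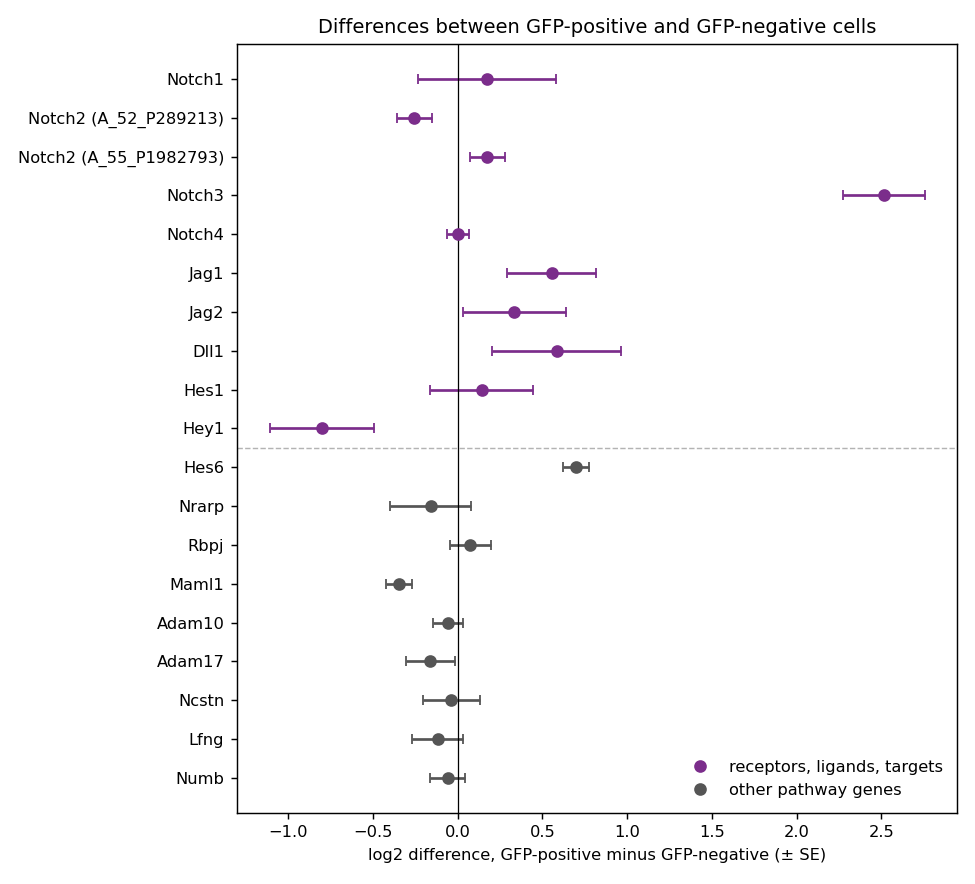
Log2 difference, GFP-positive minus GFP-negative, with its standard error, for the 10 measured probes of the receptors, ligands and targets (above the dashed line) and for 9 other pathway genes (below it). Notch3 at 2.51 lies far to the right of the others, Hey1 at -0.80 is the lowest, and Hes6 at 0.70 is the one gene below the line that passed the test.

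The rest of the pathway was read from a list of 47 other genes, each through its brightest measured probe. Of these, 46 had a probe and 42 were measured. The test for them was limma's moderated test with Benjamini-Hochberg adjustment over all 27574 probes. One gene, Hes6, rose and 0 fell, where 2.11% of all 19767 genes passed in either direction. At an unadjusted p of 0.05, 3 were higher and 4 lower of the 42, where 22.2% of all genes were past it (1535 higher and 2859 lower). The signs were 17 higher and 25 lower, against 7779 and 11988 over all genes, and the median difference was -0.05, against -0.06 over all genes.

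Hes6, a Hes-family protein known in mice to inhibit Hes1, was the pathway gene that passed. Its probe (A_51_P429366, chr1:93308264-93308323 on mm9) read 2.65, 2.53, 2.56 and 2.62 in GFP-positive replicates 1 to 4, against 1.92, 1.89, 1.98 and 1.77 in GFP-negative replicates 1 to 4. All 4 GFP-positive arrays were above all 4 GFP-negative arrays. The means were 2.59 ± 0.05 and 1.89 ± 0.09 (SD, n = 4 each), and the difference was 0.70 ± 0.07, or 1.62-fold, with an adjusted p of 0.00408 in limma. The adjusted p lay between 0.0124 and 0.0264 when one array was left out and between 0.00106 and 0.402 over 11 other settings. The call ended with the replicate number as a block (adjusted p = 0.0562), with no filter on dim probes (adjusted p = 0.0535) and within either slide row (0.0521 in row 1 and 0.402 in row 2, on differences of 0.77 and 0.63).

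None of the measured genes that process the receptor passed the test. Adam10 and Adam17, the proteases of the first cut, differed by -0.06 ± 0.09 and -0.16 ± 0.15 on the log2 scale on their brightest probes. A second Adam17 probe differed by -0.23 ± 0.10 (adjusted p = 0.222 in limma). Its groups did not overlap, as for 15.8% of all probes. Ncstn, the gamma-secretase subunit that receives the substrate, differed by -0.04 ± 0.17. Lfng, which modifies the sugars of Notch receptors, differed by -0.12 ± 0.15. Numb, an inhibitor of Notch, differed by -0.06 ± 0.10.

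The genes of the nuclear complex had no change past the test either. Rbpj, the DNA-binding partner of the Notch intracellular domain, differed by 0.08 ± 0.12 on its brightest probe and by -0.18 ± 0.10 on its other probe. Maml1, a Mastermind coactivator, read 1.99, 1.94, 1.98 and 2.08 in GFP-positive replicates 1 to 4, against 2.25, 2.33, 2.32 and 2.46 in GFP-negative replicates 1 to 4. The groups did not overlap, and the difference of -0.35 ± 0.07 had an adjusted p of 0.0599 in limma. It passed in 4 of 11 other settings, and the adjusted p ranged from 0.0276 with array weights to 0.481 within row 2. Nrarp, a feedback inhibitor induced by Notch in mice, differed by -0.16 ± 0.24.

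Like Hes6 and Maml1, Mib1 and Numbl had groups that did not overlap, and they are named after their values were seen. Through their brightest probes, 5 of the 42 pathway genes had no overlap, against 3291 of all 19767 genes, and nothing is read from this. Mib1, the ubiquitin ligase that activates ligands, differed by -0.33 ± 0.09 (adjusted p = 0.0897 in limma). Numbl, a relative of Numb, differed by -0.29 ± 0.08 (adjusted p = 0.112 in limma). Neurl1a and Aph1b, also named after their values were seen, were higher. They differed by 0.64 ± 0.18 and 0.48 ± 0.18 on their brightest probes, with overlap (adjusted p = 0.104 and 0.177 in limma). Their second probes differed by 0.69 ± 0.17 and 1.27 ± 0.30, with no overlap (adjusted p = 0.0781 and 0.0753 in limma). The second Aph1b probe was well above background on 4 arrays. The probes of the ligand Dll4 and of the targets Hes5 and Hey2 were, like that of Heyl, not well above background on any array. Together with Heyl, 3 of the Hes and Hey genes listed were therefore without a measured level.

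The position on the slide gave a comparison at right angles to the sorted fractions, namely whether the difference between GFP-positive and GFP-negative cells was the same in both rows. The comparison of the sorted fractions within one row reuses values known when the genes were chosen, so its counts are given as background and nothing is read from them. In row 1, 2 of the 10 probes and 4.60% of all were past an adjusted p of 0.05 in limma. In row 2, 0 of the 10 and 0 of all 27574 were, while 1 of the 10 and 10.8% of all had an unadjusted p under 0.05. The gap between the rows is the difference of 2 differences, each of 2 arrays against 2, and in this layout it is also 2 times the difference in mean level between the 4 arrays of replicates 1 and 3 and the 4 arrays of replicates 2 and 4. Slide row, replicate number and any shared experiment cannot be told apart in it. None of the 10 probes passed an adjusted p of 0.05 in limma, where 0.805% of all probes did. In simulated data this test recovered 8% of gaps of 1 log2 unit and 46% of gaps of 2. A gap that did not pass is therefore not shown to be absent. At an unadjusted p of 0.05 there were 5 of the 10 (4 with a gap above 0 and 1 with a gap below 0), where 18.9% of all probes were. The median size of the row difference was 0.92 for the 10 probes and 0.29 for all probes.

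**Figure D3:**
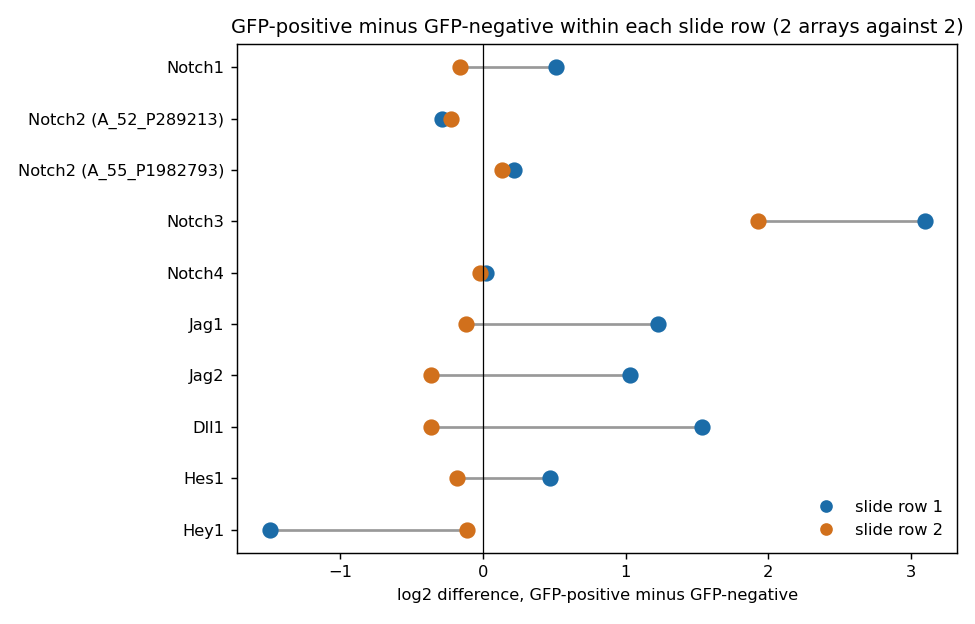
Log2 difference, GFP-positive minus GFP-negative, within slide row 1 and within slide row 2 (2 arrays against 2 in each), for the 10 measured probes. The points of Notch2 and Notch4 nearly coincide, those of Jag1, Jag2 and Dll1 lie on opposite sides of 0, and both Notch3 points (3.10 and 1.93) lie to the right of every other point.

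Of the 10 probes, those of the 3 ligands and Hey1 had the widest gaps between rows. Jag1 had differences of 1.23 in row 1 and -0.12 in row 2, a gap of 1.34 ± 0.22 with an adjusted p of 0.0603 in limma. Dll1 had differences of 1.54 in row 1 and -0.37 in row 2, a gap of 1.90 ± 0.38 with an adjusted p of 0.0810 in limma. Jag2 had differences of 1.03 and -0.36, a gap of 1.39 ± 0.41 with an adjusted p of 0.156 in limma. Under 3 other settings (normexp background correction, a filter requiring signal on all 8 arrays, and an intensity trend with a robust prior) the gaps of Jag1 and Dll1 passed, with adjusted p-values of 0.0218 to 0.0342 for Jag1 and 0.0345 to 0.0498 for Dll1. Over all 7 other settings these ranged up to 0.213 for Jag1 and 0.249 for Dll1, both with no filter on dim probes. The share of all probes that passed for the gap in those settings is not given here.

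Hey1 went the other way, with differences of -1.50 in row 1 and -0.11 in row 2, a gap of -1.39 ± 0.42 (adjusted p = 0.167 in limma). Notch3 was higher in both rows, and its gap was 1.17 ± 0.28 (adjusted p = 0.114 in limma). Nrarp had differences of 0.41 in row 1 and -0.72 in row 2 (gap of 1.13 ± 0.29, adjusted p = 0.129 in limma). The gaps of Notch1, both Notch2 probes, Notch4 and Hes1 had adjusted p-values of 0.614 to 0.900 in limma. Of the other 42 pathway genes, 0 passed for the gap in limma, and 6 had an unadjusted p under 0.05, where 18.8% of all genes did.

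Markers of epithelium and of fibroblasts moved over the same arrays as the ligands and Hey1. The mean log2 level of the 8 epithelial markers was 4.34, 4.13, 4.45 and 3.74 in GFP-positive replicates 1 to 4, against 4.06, 3.26, 3.96 and 3.24 in GFP-negative replicates 1 to 4. Of 7 fibroblast markers, 6 were measured (Lum was not well above background on any array), with a mean of -0.53, 0.28, -1.75 and 1.00 in GFP-positive replicates 1 to 4, against -0.08, 1.94, 0.97 and 1.30 in GFP-negative replicates 1 to 4. GFP-positive replicate 3, the highest array for all 3 ligands and the lowest for Hey1, had the highest epithelial and the lowest fibroblast mean. GFP-negative replicate 2, the lowest array for Jag1 and Jag2 and the highest for Hey1, had the highest fibroblast mean. In limma the gap between rows had adjusted p-values of 0.0474 for Epcam, 0.0485 for Cdh1 and Cldn7, and 0.0409 for Pdgfra. These gaps were 1.41, 1.31, 1.57 and -3.24 in that order. The other epithelial and fibroblast markers measured did not pass, and 0.805% of all probes did.

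The log2 of the summed fibroblast marker signal ranged from 1.91 to 5.89 on GFP-positive arrays and from 3.81 to 7.39 on GFP-negative arrays, and that of the epithelial markers from 9.18 to 9.72 on GFP-positive arrays and from 8.86 to 9.57 on GFP-negative arrays. The part of these markers in the levels of the ligands and Hey1 was not tested. Of 8 leukocyte markers, 4 were measured, with a mean of 1.46 to 1.76 on GFP-positive arrays and 1.15 to 1.46 on GFP-negative arrays. One of them, Cd68, a lysosomal protein of macrophages, moved with the sorted fractions. It averaged 0.99 ± 0.15 in GFP-positive cells and -0.01 ± 0.16 in GFP-negative cells (SD, n = 4 each). The difference was 1.00 ± 0.11 with no overlap and an adjusted p of 0.00514 in limma, and the part of Cd68 in the level of Notch3 was not tested. The other leukocyte markers measured did not follow Cd68: Csf1r differed by 0.29 ± 0.36, Itgam by 0.03 ± 0.11 and Cd3e by -0.08 ± 0.16, all with overlap. Ptprc, Adgre1, Tyrobp and Lyz2 were not measured. Of 8 endothelial markers, 2 were measured, with a mean of -0.99 to -0.66 on GFP-positive arrays and -1.01 to -0.61 on GFP-negative arrays.

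**Figure D4:**
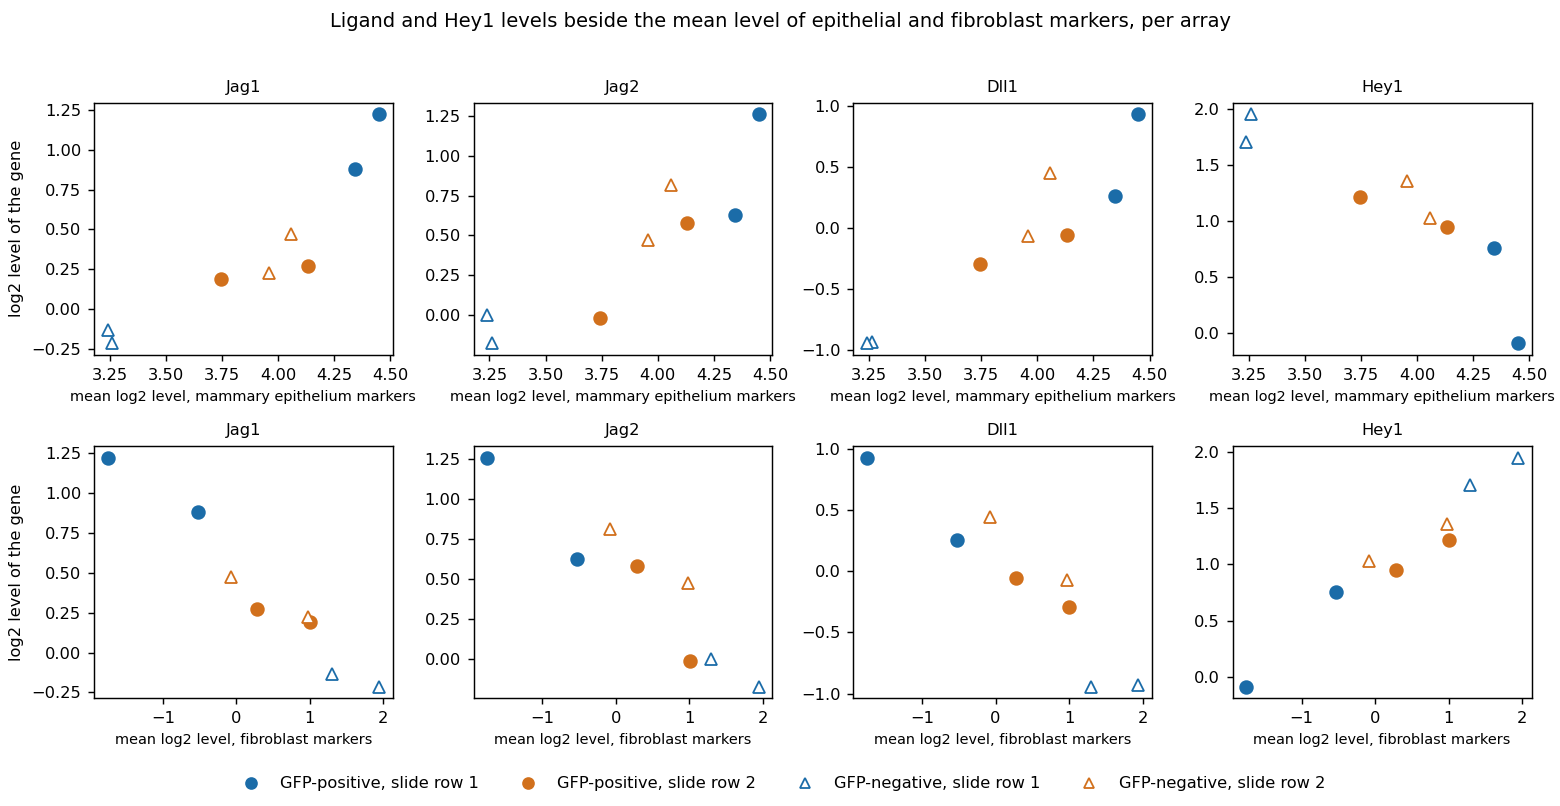
Log2 level of Jag1, Jag2, Dll1 and Hey1 on each array against the mean log2 level of the 8 epithelial markers (top) and of the 6 measured fibroblast markers (bottom); filled circles are GFP-positive and open triangles GFP-negative arrays, coloured by slide row. The ligands are high where the epithelial mean is high and the fibroblast mean low, from GFP-positive replicate 3 at one end to GFP-negative replicates 2 and 4 at the other, and Hey1 runs the opposite way.

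The genes most like Notch3, Dll1 and Hey1, the members with the largest SD over the 8 arrays, were found by Pearson's r over those arrays among 13232 genes. The points share the 2 groups and 1 slide, and the values are a description. Nearest to Notch3 were Tcea3, a transcription elongation factor (r = 0.995), Cish, an inhibitor of cytokine signalling (r = 0.995), and Etnk2, an ethanolamine kinase (r = 0.995). These differed by 1.09 ± 0.11, 0.80 ± 0.11 and 1.78 ± 0.19 on the log2 scale between GFP-positive and GFP-negative cells.

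Among the genes nearest to Dll1 were Marchf8, a membrane ubiquitin ligase (r = 0.991), and Dsp, the desmosome protein desmoplakin (r = 0.991). Dsp had differences of 1.57 in row 1 and -0.24 in row 2. Nearest to Hey1 were Rpl34-ps1, a pseudogene whose probe may also read the parent ribosomal gene (r = 0.996), Serpinh1, a collagen chaperone (r = 0.990), and Me3, a mitochondrial malic enzyme (r = 0.990). Serpinh1 had differences of -0.98 in row 1 and -0.06 in row 2, and those of Hey1 were -1.50 and -0.11.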

How the data were processed

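Gene expression was measured on 8 Agilent arrays of sorted MAM326 cells, 4 GFP-positive and 4 GFP-negative. Per the file headers, Feature Extraction 10.7.3.1 (protocol GE1_107_Sep09, array design 028005, probe positions on mm9) made the deposited intensity values. Its processed signal was already background-corrected, and the sources used here give no later steps of the authors. Spots marked as outliers (106 to 186 per array) were left out, the log2 signal was set relative to each array's 75th percentile, and spots of a probe were averaged. Of 55681 probes, 27574 had a signal well over background on 4 or more arrays and were kept. The number of arrays limits the precision.

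Both comparisons were fitted on all kept probes with limma 3.58.1 in R 4.3.3 (two-sided, Benjamini-Hochberg, threshold 0.05), with files read by the data.table package (1.17.8), and tested on simulated data. Accessions of 27509 probes (49.4%) matched RefSeq genes, and windows came from RefSeq on GRCm38.p6. Exon and UTR annotation was not used here. Named genes were all members, a set of pathway genes whatever their values (Rbpj, Maml1, Adam10, Adam17, Ncstn, Nrarp, Lfng, Dll4, Numb, Hes5 and Hey2), other pathway genes past the threshold, and the 3 genes most like each of the 3 most variable members; a few items that this rule takes are not reported here. The members and lists were chosen with earlier results of these data known. Alternatives were normexp (offset 50), quantile normalization, other filters, gene level, blocks, within-row fits, array weights, an intensity trend with a robust prior, and leaving out each array.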

Additional observations from a re-analysis of the deposited data

How the results depend on the processing

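Notch3 was higher in GFP-positive cells in every setting run, by 1.93 to 3.10. Of the member probes, chosen with this comparison in view, 1 was past the threshold in the fit reported, 2 within row 1 and 0 within row 2, and nothing is read from these counts. In row 2, 0 of all 27574 probes passed in limma, while 10.8% had an unadjusted p under 0.05. Of the other 42 pathway genes, 1 passed in the fit reported (552 of all 27574 probes) and 2 with normexp (896 of 27574). When signal was required on all 8 arrays, 2 of 41 passed (770 of 23478 probes). With the intensity trend and robust prior 2 passed (1349 of 27574 probes), and with array weights 4 (2114 of 27574). With no filter on dim probes 0 passed (160 of 55646 probes), as with the replicate block (220 of 27574) and within row 2 (0 of 27574). These pathway counts are of genes beside counts of probes, and nothing is read from them. For the gap between rows, 2 member probes (Jag1 and Dll1) passed with normexp, with signal required on all 8 arrays and with the intensity trend. Without any one array, 0 passed. The share of all probes that passed for the gap in these settings is not given here, so nothing is read from these counts.

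Small differences changed sign: Adam10 was 0.032 with quantile normalization, Ncstn 0.19 and Nrarp 0.41 within row 1, and Rbpj -0.038 and Numb 0.0082 within row 2. Without one array, Ncstn ranged from -0.21 to 0.047 and Rbpj from -0.0020 to 0.14. The gap between rows turned to 0.044 for Notch2 (A_52_P289213), -0.097 for Notch2 (A_55_P1982793) and -0.015 for Notch4 with normexp, and to -0.081 for Notch2 (A_55_P1982793) and -0.0029 for Notch4 with quantile normalization. Without one array, the gap ranged from -0.20 to 1.54 for Notch1, from -0.22 to 0.10 and from -0.10 to 0.26 for the 2 Notch2 probes, and from -0.0058 to 0.096 for Notch4. The cause was not tested.

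Over all probes, 420 were higher and 132 lower in the fit reported, 510 and 386 with normexp, 159 and 1 with no filter, 971 and 1143 with array weights, and 647 and 702 with the intensity trend. The excess of higher calls thus turned round with array weights and with the intensity trend. In all, 552 passed, against 896 with normexp, 160 with no filter, 220 with the replicate block, 335 with the row as a block, 1268 in row 1, 2114 with array weights, 1349 with the intensity trend, and 181 to 439 without one array. Arrays with the same replicate number did not deviate together (correlations of deviations of -0.02, 0.08, 0.03 and 0.16), and no array was most like the one with its own number. Some arrays with different numbers did deviate together (0.40 for GFP-positive 1 with GFP-negative 3, 0.30 for 2 with 4, 0.57 for 3 with 1 and 0.62 for 4 with 2), which no label explains, while the standard errors take arrays as independent. No fit used these pairs, and the replicate block served only as an alternative. It moved the adjusted p of Hes6 to 0.0562.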

Other observations

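Dlk1, a non-canonical Notch ligand and imprinted gene, was singled out after its values were seen, as a pathway gene with a wide spread. Its brightest probe (A_66_P117477) read -3.00, -0.26, -1.46 and -0.94 in GFP-positive replicates 1 to 4, against 0.24, -0.10, -1.73 and 0.95 in GFP-negative replicates 1 to 4. The groups overlapped, and the difference was -1.26 ± 0.71 (adjusted p = 0.340 in limma). A second probe (A_55_P2105371) differed by -1.30 ± 0.72. The gap of the difference between slide rows was -2.80 ± 1.15 on the brightest probe (adjusted p = 0.264 in limma), wider than that of any of the 10 probes of the receptors, ligands and targets. On both probes GFP-positive replicate 1 was the lowest array and GFP-negative replicate 4 the highest.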
